A study of Homo sapiens with 24 samples.

Results

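The BCL2 family genes described here were 10 of the 63299 genes in the count table, chosen by name and role: the pore-forming genes BAX and BAK1, the anti-apoptotic genes MCL1, BCL2L1 and BCL2, and the BH3-only genes PMAIP1, BBC3, BCL2L11, BID and BIK. Their RNA was measured by total RNA sequencing in 24 libraries, 3 for each of 8 groups of cell line, treatment and time. A2780 is a platinum-sensitive ovarian cancer cell line, and A2780cis is the platinum-resistant line derived from it, which was given cisplatin at intervals in culture to keep it resistant. Each line was kept in standard medium (untreated control) or exposed to 1 μM 5-FdU-ECyd, and harvested after 6 h or 12 h. 5-FdU-ECyd is a duplex prodrug in which 5-FdU, a fluorinated deoxyuridine, is joined to ECyd, an ethynylated cytidine. The lines were seeded at different cell numbers, and platinum resistance is represented by this 1 resistant line. The study calls the libraries of a group biological triplicates, but the sample labels do not say that they came from separate cultures, so the p-values below measure the spread between these libraries, which may be partly technical.

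Between 11077368 and 21901406 reads were counted per library. Expression is given as CPM, the counts of a gene per 1000000 counted reads, after TMM normalization, which scales libraries so that most genes do not shift. The study describes ECyd as an inhibitor of RNA polymerase. CPM is a share of the counted RNA, so a change in total RNA per cell would not be seen, and it was not tested. Higher, lower and raised are thus meant relative to the other genes counted. Of all genes, 20240 passed the filter on low counts, and so did each of the 10 described here, although BIK had at most 6 counts in any untreated library and passed through the treated libraries of 12 h. Endothelial and leukocyte markers had at most 3 counts in any library. Of 8 ovarian and epithelial markers, PAX8, WT1, CDH1 and MUC16 had at most 2 counts and KRT7 had none, while EPCAM reached 1.96, KRT8 6.80 and KRT18 28.4 CPM. Of 3 mesenchymal markers, VIM lay between 788 and 2770 CPM, CDH2 reached 55.6 and FN1 3.59 CPM. The median in A2780 was above that in A2780cis for EPCAM (0.776 and 0.295 CPM), CDH2 (39.4 and 3.92) and the 3 fibroblast genes COL1A1 (9.14 and 1.06), DCN (7.73 and 0.892) and PDGFRB (4.10 and 0.273), and below it for KRT8 (1.11 and 4.93) and KRT18 (1.99 and 25.4). The part of these marker differences in the differences between the lines was not tested. In bulk RNA, fewer cells of a kind and less RNA per cell cannot be told apart.

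BCL2 family proteins decide whether the outer membrane of the mitochondrion stays intact. BAX and BAK1 form pores in it that release cytochrome c, MCL1, BCL2L1 (whose long product is BCL-XL) and BCL2 hold them in check, and BH3-only proteins either occupy the anti-apoptotic proteins or activate the pore formers directly. PMAIP1 (NOXA), BBC3 (PUMA) and BAX are textbook targets of the tumour suppressor p53, and much of the family is also controlled after transcription, for example by the rapid degradation of MCL1 protein, which RNA counts do not show.

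In GENCODE 44 (GRCh38) the pore-forming genes lie at chr19:48954815-48961798 (BAX, plus strand) and chr6:33572547-33580293 (BAK1, minus). The anti-apoptotic genes, all on the minus strand, lie at chr1:150560895-150579738 (MCL1), chr20:31664452-31723989 (BCL2L1) and chr18:63123346-63320128 (BCL2). The BH3-only genes lie at chr18:59899996-59904305 (PMAIP1, plus), chr19:47220822-47232766 (BBC3, minus), chr2:111119378-111168444 (BCL2L11, plus), chr22:17734138-17774770 (BID, minus) and chr22:43110750-43129712 (BIK, plus). Counts were summed over the exons of each gene.

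The sequences just upstream of PMAIP1, BBC3, BAX and BAK1 are shown because these 4 genes were higher in treated cells of both lines at both times. They are reference sequence of RefSeq (GRCh38.p14), written 5′ to 3′ on the gene's strand, from 250 bases before the RefSeq start and ending before the first base that GENCODE release 44 gives the gene. Capitals mark matches to the p53 consensus, 2 adjacent elements of 10 letters, each with the fixed core bases C and G, both required in every match. The consensus reads the same on both strands, so 1 search covers them. The stretches are chr18:59899746-59899995 on the plus strand for PMAIP1, chr6:33580294-33580526 on the minus strand for BAK1, chr19:48954625-48954814 on the plus strand for BAX and chr19:47232767-47232917 on the minus strand for BBC3.
PMAIP1: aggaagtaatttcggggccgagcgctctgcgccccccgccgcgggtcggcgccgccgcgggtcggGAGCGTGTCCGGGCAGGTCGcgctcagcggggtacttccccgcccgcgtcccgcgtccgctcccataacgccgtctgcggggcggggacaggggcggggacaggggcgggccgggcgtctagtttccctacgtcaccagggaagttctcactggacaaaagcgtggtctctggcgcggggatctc
BAK1: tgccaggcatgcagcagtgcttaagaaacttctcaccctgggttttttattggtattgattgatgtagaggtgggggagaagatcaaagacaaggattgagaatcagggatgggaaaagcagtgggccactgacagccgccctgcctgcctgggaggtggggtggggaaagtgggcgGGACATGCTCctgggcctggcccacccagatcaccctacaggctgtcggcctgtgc
BAX: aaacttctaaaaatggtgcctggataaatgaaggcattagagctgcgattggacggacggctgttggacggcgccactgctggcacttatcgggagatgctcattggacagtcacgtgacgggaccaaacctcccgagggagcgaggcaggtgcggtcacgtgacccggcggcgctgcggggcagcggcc
BBC3: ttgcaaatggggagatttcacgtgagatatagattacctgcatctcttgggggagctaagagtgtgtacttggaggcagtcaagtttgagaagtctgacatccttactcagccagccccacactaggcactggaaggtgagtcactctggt
Upstream of PMAIP1, 2 adjacent elements with 3 mismatches in 20 letters began 185 bases before the start. Such a pair, with at most 3 mismatches, was found in 0.914% of the 35114 promoters of the same length searched. Upstream of BAK1, 1 element without a mismatch began 73 bases before the start, and 5.57% of the promoters held at least 1 such element. No match was found in the 250 bases before BAX and BBC3, which says only that these letters are not in this window. The RefSeq table held promoters of 8 of the 10 genes; MCL1 and BIK had no entry. The number of mismatches allowed was chosen with these sequences known, and a match is a description of the letters, not of binding.

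To set the genes side by side, CPM was divided by the length of each gene's merged exons in kilobases. On this scale MCL1 was the highest of the 10 genes and BAX the second in each of the 8 groups. Of the summed signal of MCL1, BCL2L1 and BCL2, MCL1 made up the least, 83.2% ± 1.80 (SD, n = 3), in untreated A2780cis cells at 12 h. It made up the most, 92.6% ± 0.874 (SD, n = 3), in treated A2780 cells at 12 h. BCL2L2, another anti-apoptotic gene of the family, was not in this sum. Before division by length it had 53.0 CPM in untreated A2780 and 80.2 CPM in untreated A2780cis cells at 12 h. BCL2L1 had 30.2 and 36.3 CPM there. Below MCL1 and BAX, the order of the genes described changed with treatment. PMAIP1 was the sixth highest gene in untreated A2780cis cells at both times and the third in treated A2780cis cells at both times, although at 6 h its libraries overlapped those of BAK1, its next neighbour. BAK1, BID and BCL2L1 followed each other closely in untreated A2780 cells at 6 h, and neighbours among them overlapped. With the longest transcript in place of merged exons, MCL1 and BAX kept their places except in treated A2780cis cells at 12 h, where BAX came before MCL1, and PMAIP1 was the fourth in treated A2780cis cells at 6 h.

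**Figure D1:**
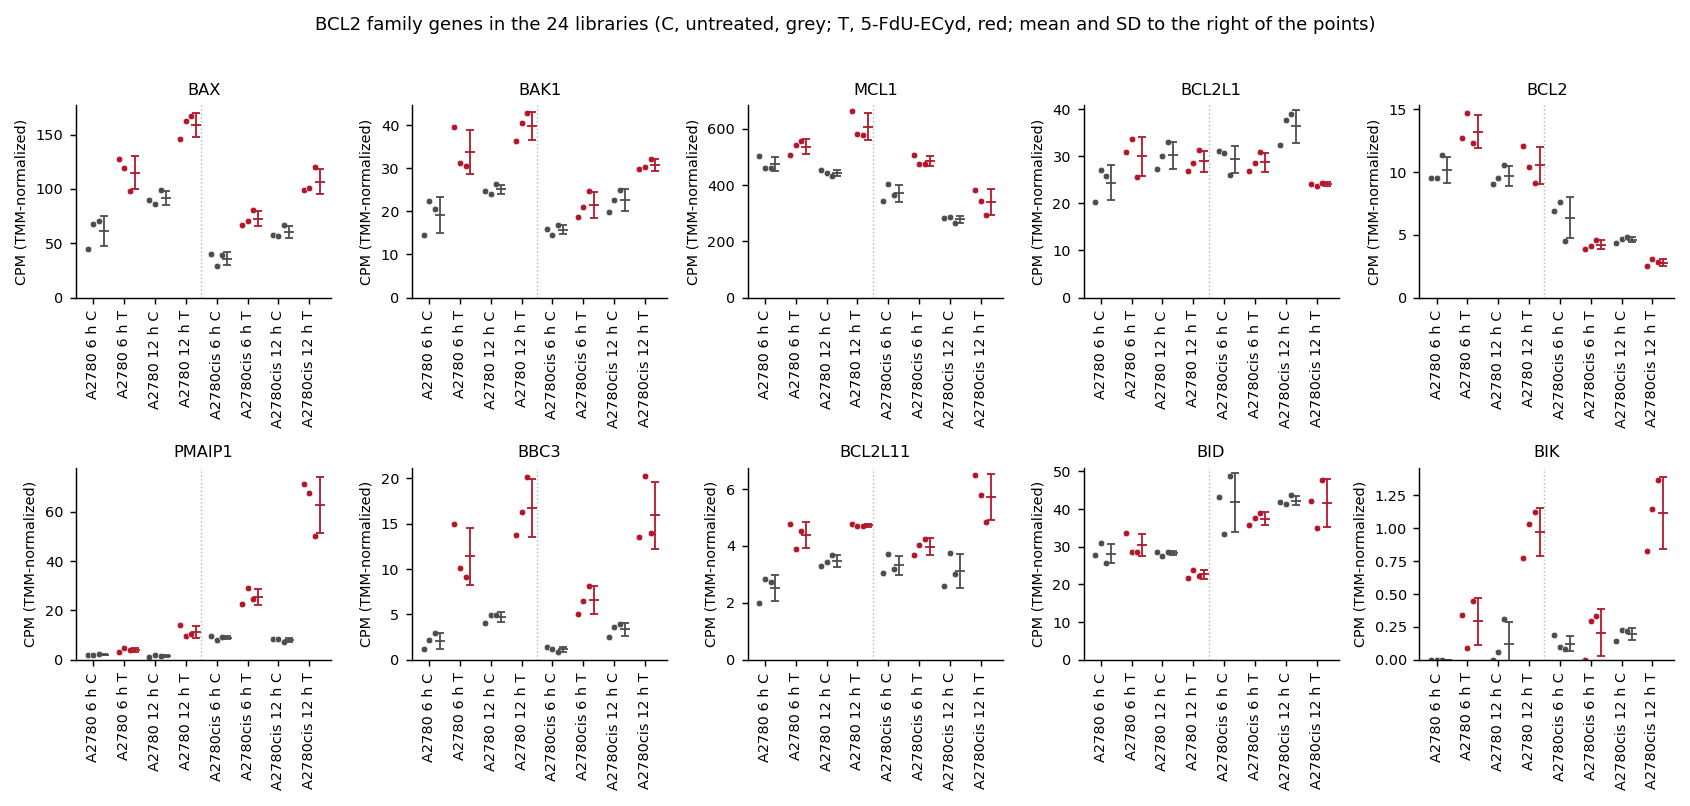
TMM-normalized CPM of the 10 genes (vertical axes, each from 0) in the 24 libraries by group (horizontal axes; C, untreated; T, treated with 5-FdU-ECyd), with the mean and SD of 3 libraries beside the points. PMAIP1 reached 50.0 to 71.2 CPM in treated A2780cis cells at 12 h, against 7.02 to 8.59 CPM in untreated cells of that line and time.

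Treatment raised some pro-apoptotic genes of the family in both lines, but not all of them. BID did not rise in any comparison, and BOK, a BAX-like gene outside this set, was lower at both times in both lines. BAX, BAK1, PMAIP1 and BBC3 were higher at both times in both lines, with folds between 1.36 for BAK1 in A2780cis and 7.87 for PMAIP1 in A2780cis at 12 h. Of the anti-apoptotic genes, MCL1 was slightly higher in 3 of the 4 comparisons, and BCL2 at both times and BCL2L1 at 12 h were lower in A2780cis. Leaving out BIK, 5 of the other 9 genes were higher in treated A2780 cells at 6 h and 4 did not pass the test, while 29.4% of all genes tested passed (16% higher, 13.4% lower). At 12 h in A2780, 6 of the 9 were higher and 1 was lower, against 54.8% of all genes, with 28.6% higher and 26.1% lower. In A2780cis, 5 were higher and 1 was lower at 6 h (background 30.7%; 14.4% higher and 16.3% lower), and 6 were higher and 2 lower at 12 h (background 59.9%; 31.0% higher and 28.9% lower). The median log2 FC of the 9 genes was 0.82 and 0.46 in A2780 at 6 h and 12 h, and 0.39 and 0.45 in A2780cis, while the median over all genes tested lay between 0.00 and 0.04. Treated and untreated libraries did not overlap for 7 of the 9 genes in A2780 at 6 h and at 12 h, and for 5 and 8 of them in A2780cis. The background for these counts was 41.6% and 64.0% of all genes tested in A2780, and 43.2% and 59.6% in A2780cis, so at 12 h more genes passed or were separated than not.

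**Figure D2:**
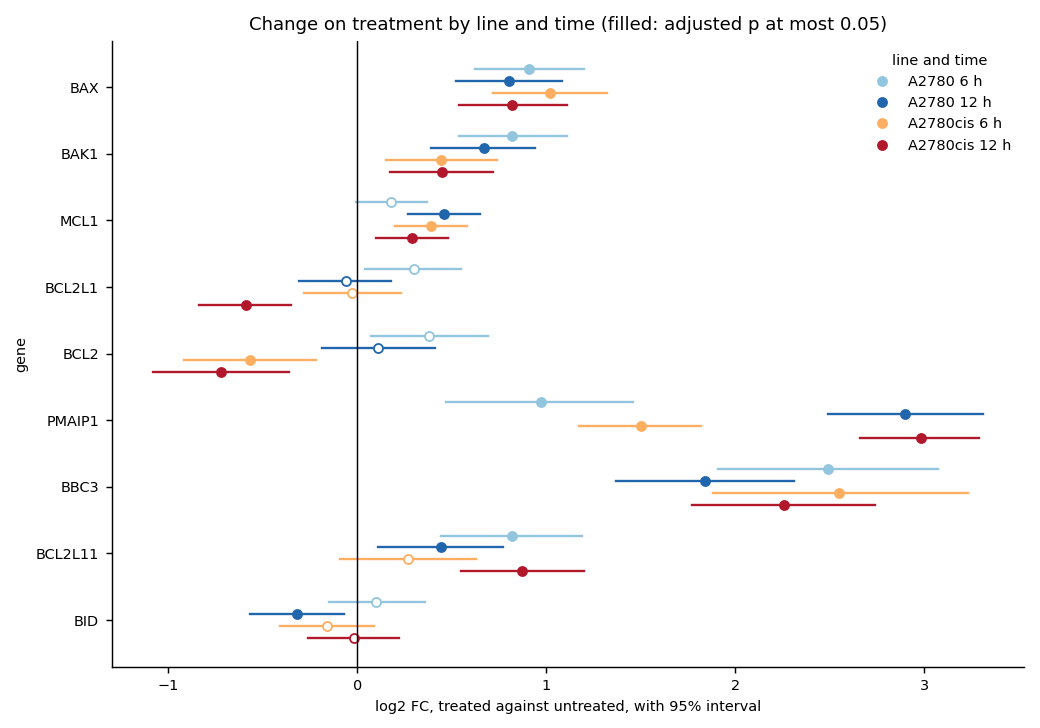
Log2 FC of treated against untreated cells (horizontal axis) with 95% intervals for the 9 genes other than BIK (vertical axis) in the 4 comparisons of line and time, filled where the adjusted p was at most 0.05. PMAIP1 lies at 0.97 and 1.50 at 6 h and at 2.90 and 2.98 at 12 h, while BCL2 lies above 0 in A2780 and below 0 in A2780cis.

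BAX, which forms the pore in the outer membrane once activated, had 45.2, 67.9 and 70.8 CPM in untreated and 128, 119 and 98.4 CPM in treated A2780 cells at 6 h. At 12 h the untreated A2780 libraries had 89.6, 85.9 and 98.6 CPM and the treated ones 146, 163 and 167 CPM. Each treated library was above each untreated library of its time, and the log2 FC was 0.91 ± 0.14 (SE; adjusted p = 2.54e-05) at 6 h and 0.80 ± 0.14 (adjusted p = 2.11e-05) at 12 h. In A2780cis, BAX had 39.7, 28.8 and 38.9 CPM in untreated and 66.6, 70.8 and 80.6 CPM in treated cells at 6 h. At 12 h it had 57.3, 56.8 and 66.8 CPM in untreated and 99.5, 101 and 120 CPM in treated cells. These groups did not overlap either, and the log2 FC was 1.02 ± 0.14 (adjusted p = 7.06e-06) at 6 h and 0.82 ± 0.14 (adjusted p = 1.36e-05) at 12 h.

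BAK1, the second pore former, lay between 14.5 and 26.3 CPM in untreated and between 30.4 and 42.7 CPM in treated A2780 cells over both times. In A2780cis it lay between 14.6 and 25.0 CPM in untreated and between 18.7 and 32.2 CPM in treated cells. Treated and untreated libraries of the same line and time did not overlap. The log2 FC in A2780 was 0.82 ± 0.14 (adjusted p = 8.32e-05) at 6 h and 0.67 ± 0.13 (adjusted p = 0.000136) at 12 h. In A2780cis it was 0.44 ± 0.14 (adjusted p = 0.0198) and 0.45 ± 0.13 (adjusted p = 0.00546). The call in A2780cis at 6 h was lost without untreated replicate 2 (log2 FC 0.39, adjusted p = 0.0809) or treated replicate 3 (0.33, adjusted p = 0.141).

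PMAIP1, a BH3-only gene whose protein binds MCL1 above all, had a treatment response that grew between 6 h and 12 h in both lines. In A2780 at 6 h it had 1.79, 1.89 and 2.18 CPM in untreated and 3.07, 4.63 and 3.78 CPM in treated cells. By 12 h the values were 1.25, 1.74 and 1.49 CPM in untreated and 14.2, 9.53 and 10.4 CPM in treated cells. Every treated library was above every untreated one, by a small margin at 6 h and a wide one at 12 h. The untreated A2780 libraries held few reads of PMAIP1, 20 to 25 each at 6 h and 19 to 30 at 12 h. The log2 FC was 0.97 ± 0.24 (adjusted p = 0.00358) at 6 h and 2.90 ± 0.20 (adjusted p = 5.62e-12) at 12 h. A2780cis cells started from a higher level, with 9.61, 8.22 and 9.24 CPM in untreated cells at 6 h and 8.33, 8.59 and 7.02 CPM at 12 h. After treatment they had 22.8, 29.0 and 24.8 CPM at 6 h and 71.2, 67.5 and 50.0 CPM at 12 h. Untreated A2780cis cells at 12 h thus had less PMAIP1 RNA than treated A2780 cells at that time, with no overlap, and treated A2780cis cells had several times more. The log2 FC in A2780cis was 1.50 ± 0.16 (adjusted p = 1.01e-07) and 2.98 ± 0.15 (adjusted p = 2.88e-14).

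BBC3 encodes PUMA, a BH3-only protein that binds each of the anti-apoptotic members described here. In A2780 it had 1.15, 2.18 and 2.91 CPM in untreated and 15, 10.1 and 9.11 CPM in treated cells at 6 h. By 12 h the values were 4.03, 4.98 and 4.98 CPM in untreated and 13.7, 16.3 and 20.1 CPM in treated cells. The groups did not overlap, and the log2 FC was 2.49 ± 0.28 (adjusted p = 3.23e-07) at 6 h and 1.84 ± 0.23 (adjusted p = 2.09e-07) at 12 h. In A2780cis the untreated libraries had 1.39, 1.20 and 0.818 CPM at 6 h and 2.50, 3.59 and 3.94 CPM at 12 h. The treated libraries had 5.02, 6.50 and 8.10 CPM at 6 h and 13.5, 20.2 and 14.0 CPM at 12 h. Again each treated library was above the untreated ones of its time, with a log2 FC of 2.55 ± 0.33 (adjusted p = 1.77e-06) and 2.26 ± 0.24 (adjusted p = 9.69e-09). The untreated libraries held few reads of this gene, between 10 and 97 each.

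BCL2L11, which encodes BIM, an activator of BAX and BAK1, rose in 3 of the 4 comparisons. It lay between 2.01 and 3.70 CPM in untreated A2780 and between 3.89 and 4.78 CPM in treated A2780 cells over both times. Its log2 FC in A2780 was 0.82 ± 0.18 (adjusted p = 0.00151) at 6 h and 0.44 ± 0.16 (adjusted p = 0.0215) at 12 h. The treated and untreated A2780 libraries did not overlap at either time, but the 12 h call was lost without untreated replicate 1 (log2 FC 0.40, adjusted p = 0.0661) or 2 (0.43, adjusted p = 0.0576), and without a filter on low counts (0.41, adjusted p = 0.115). In A2780cis the log2 FC was 0.27 ± 0.17 at 6 h, where the groups overlapped (adjusted p = 0.256), and 0.87 ± 0.16 (adjusted p = 3.62e-05) at 12 h.

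BID, whose protein is cleaved by caspase-8 before it acts on mitochondria, was the most abundant per length of the BH3-only genes described here in untreated cells of both lines. Other BH3-only genes, such as BAD, were not set per length. It did not rise in any comparison. In A2780 at 12 h it had 28.6, 27.6 and 28.5 CPM in untreated and 21.7, 23.9 and 22.3 CPM in treated cells, which did not overlap, and fell by 0.32 ± 0.12 on the log2 scale (adjusted p = 0.0307). That call was lost without any 1 of 5 of the 6 libraries, with adjusted p between 0.0513 and 0.0697, and with scaling by library size alone (log2 FC -0.09, adjusted p = 0.512). In the other comparisons the treated and untreated libraries overlapped, and the log2 FC was 0.10 ± 0.12 in A2780 at 6 h, -0.16 ± 0.12 in A2780cis at 6 h and -0.02 ± 0.12 in A2780cis at 12 h (adjusted p = 0.564, 0.345 and 0.895).

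BIK, a BH3-only gene whose protein sits mainly at the endoplasmic reticulum, was close to the limit of detection. No read of it was counted in the 3 untreated A2780 libraries at 6 h, while the treated ones held 4, 1 and 6 counts, which is at least 3.61-fold higher when the untreated group is set to 3 counts in all. At 12 h the untreated A2780 libraries held 0, 1 and 6 counts and the treated ones 11, 21 and 23, and the ratio of summed counts, corrected for library size, was 7.37 (95% interval 3.35 to 19.2). Untreated replicate 3 held 6 of the 7 untreated counts, and without it the ratio was 32.2 (5.55 to 1300). In A2780cis the ratio was 1.91 (0.567 to 8.24) at 6 h and 5.80 (3.00 to 12.3) at 12 h, where the untreated libraries held 3, 4 and 4 counts and the treated ones 13, 20 and 22. These intervals and limits cover counting error only. At 12 h the treated libraries were above the untreated ones in both lines. Because BIK passed the filter through its treated 12 h libraries, no test of it is given.

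MCL1, an anti-apoptotic gene whose protein turns over rapidly, changed little in fold but on a high base. In A2780 it had 452, 442 and 431 CPM in untreated and 663, 582 and 577 CPM in treated cells at 12 h. Treated libraries were above untreated ones there, with a log2 FC of 0.46 ± 0.09 (adjusted p = 0.000166), while at 6 h the log2 FC was 0.18 ± 0.09 (adjusted p = 0.152). In A2780cis MCL1 had 343, 404 and 364 CPM in untreated and 506, 474 and 474 CPM in treated cells at 6 h. At 12 h it had 284, 285 and 264 CPM in untreated and 384, 342 and 294 CPM in treated cells. The groups did not overlap at either time, although treated replicate 3 at 12 h was close to the untreated libraries. The log2 FC was 0.39 ± 0.09 (adjusted p = 0.00248) at 6 h and 0.29 ± 0.09 (adjusted p = 0.00893) at 12 h, and the 12 h call was lost without treated replicate 1 (log2 FC 0.19, adjusted p = 0.0867), without a filter on low counts (0.24, adjusted p = 0.0825) and with the compared libraries alone (0.27, adjusted p = 0.0869).

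BCL2 itself fell in treated A2780cis cells and passed no test in A2780. In A2780 at 6 h it had 9.55, 9.56 and 11.4 CPM in untreated and 12.7, 14.7 and 12.3 CPM in treated cells. By 12 h the values were 9.04, 9.50 and 10.6 CPM in untreated and 12.1, 10.4 and 9.13 CPM in treated cells. The groups did not overlap at 6 h and overlapped at 12 h, and the test passed at neither time (log2 FC 0.38 ± 0.15, adjusted p = 0.0569, and 0.11 ± 0.14, adjusted p = 0.535). In A2780cis at 6 h BCL2 had 6.93, 7.62 and 4.50 CPM in untreated and 3.91, 4.09 and 4.62 CPM in treated cells. At 12 h it had 4.38, 4.66 and 4.80 CPM in untreated and 2.48, 3.04 and 2.87 CPM in treated cells. Untreated replicate 3 at 6 h lay within the treated range, whereas the 12 h groups did not overlap. BCL2 fell by 0.57 ± 0.17 on the log2 scale at 6 h (adjusted p = 0.0129) and by 0.72 ± 0.17 at 12 h (adjusted p = 0.000962). The 6 h call was lost without untreated replicate 1 (log2 FC -0.50, adjusted p = 0.0578) or 2 (-0.42, adjusted p = 0.102), and with the compared libraries alone (-0.57, adjusted p = 0.0548).

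BCL2L1 fell in treated A2780cis cells at 12 h, where it had 32.4, 37.6 and 39.0 CPM in untreated and 24.2, 23.7 and 24.4 CPM in treated cells. The groups did not overlap, and the log2 FC was -0.59 ± 0.12 (adjusted p = 0.000142). In A2780 at 12 h it had 27.4, 30.1 and 33.1 CPM in untreated and 26.8, 28.6 and 31.3 CPM in treated cells, with a log2 FC of -0.06 ± 0.12 (adjusted p = 0.675). At 6 h the log2 FC was 0.30 ± 0.12 in A2780 (adjusted p = 0.0723) and -0.03 ± 0.12 in A2780cis (adjusted p = 0.908), and the groups overlapped in both lines. Gene-level counts do not separate the long from the short BCL2L1 transcripts, whose proteins act in opposite ways. Of the exon bases of BCL2L1, 41.3% lie opposite exons of the antisense RNA ABALON, which had 12.6 CPM in untreated and 7.98 CPM in treated A2780cis cells at 12 h, and the setting for strand in the counting is not given in the sources used here, so reads of the 2 genes cannot be told apart.

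The response of BCL2 differed between the lines at both times, and that of BCL2L1 at 12 h. The difference of log2 FC, A2780cis minus A2780, was -0.95 ± 0.23 for BCL2 at 6 h (adjusted p = 0.0175), when 3.07% of all genes passed this test (0.692% with a positive and 2.38% with a negative difference). At 12 h it was -0.83 ± 0.23 for BCL2 (adjusted p = 0.00972) and -0.53 ± 0.17 for BCL2L1 (adjusted p = 0.0247), against 23.7% of all genes (9.70% positive, 14.0% negative). The BCL2 difference at 6 h lost its call without A2780 untreated replicate 1 (-0.91, adjusted p = 0.0562), A2780 treated replicate 2 (-0.87, adjusted p = 0.0585) or A2780cis untreated replicate 2 (-0.80, adjusted p = 0.0761), and with the compared libraries alone (-0.89, adjusted p = 0.0679). The BCL2L1 difference lost it without any of 4 libraries, namely A2780 untreated replicate 1 (-0.45), A2780 treated replicate 3 (-0.45) and A2780cis untreated replicates 2 (-0.50) and 3 (-0.47). For PMAIP1 the difference was 0.53 (95% interval -0.07 to 1.14) at 6 h and 0.08 (-0.50 to 0.65) at 12 h, so a difference of up to 0.65 at 12 h lies within its interval.

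The response of PMAIP1 was larger at 12 h than at 6 h in both lines. The log2 FC at 12 h minus that at 6 h was 1.94 ± 0.32 in A2780 (adjusted p = 0.000156) and 1.48 ± 0.22 in A2780cis (adjusted p = 3.99e-05), in tests that 23.7% (10.7% positive, 13% negative) and 24% (10.3% positive, 13.6% negative) of all genes passed. BCL2L1 had the only other difference past the threshold, -0.57 ± 0.17 in A2780cis (adjusted p = 0.0179), which was lost without untreated replicate 3 (-0.49, adjusted p = 0.0601) or treated replicate 3 (-0.51, adjusted p = 0.0521) of 6 h. BBC3 and BAX were already higher at 6 h. Their difference between the times was -0.65 (95% interval -1.41 to 0.12) and -0.12 (-0.52 to 0.29) in A2780, and -0.30 (-1.17 to 0.57) and -0.20 (-0.61 to 0.21) in A2780cis.

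**Figure D3:**
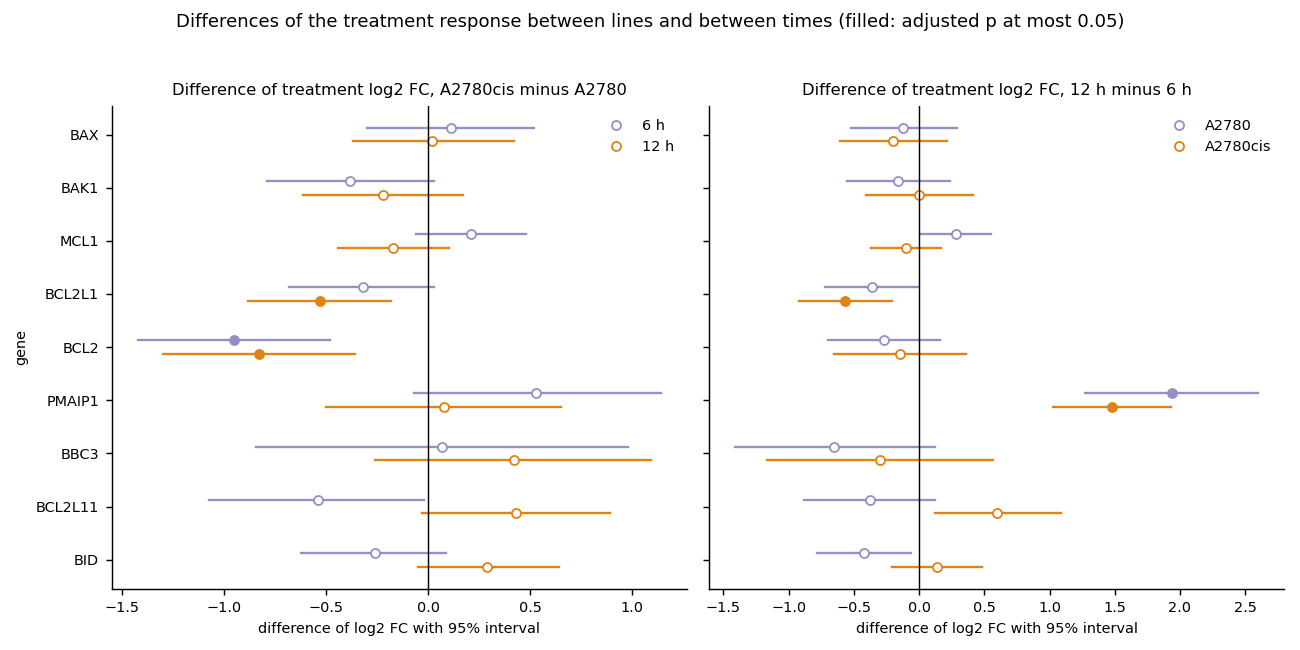
Difference of the treatment log2 FC between the lines (left, A2780cis minus A2780, at 6 h and 12 h) and between the times (right, 12 h minus 6 h, in each line), with 95% intervals, for the 9 genes other than BIK; filled points passed an adjusted p of 0.05. BCL2 lies at -0.95 and -0.83 on the left, and PMAIP1 at 1.94 and 1.48 on the right.

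Because the BH3-only gene PMAIP1 and the anti-apoptotic gene MCL1 moved by such different amounts, their ratio shifted. Per length, PMAIP1 RNA was 0.965% ± 0.166 (SD, n = 3) of MCL1 RNA in untreated and 5.28% ± 0.707 in treated A2780 cells at 12 h. In A2780cis it was 8.17% ± 0.531 in untreated and 52.5% ± 3.91 in treated cells at 12 h. The groups did not overlap in either line. Of the summed signal per length of the BH3-only genes described here, PMAIP1 made up 63.3% ± 5.65 in treated A2780cis cells at 12 h, against 24.4% ± 2.63 in untreated cells. BID made up 21.1% ± 5.17 in the treated and 64.0% ± 2.25 in the untreated cells.

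The BH3-only genes together held 14.6% ± 0.208 (SD, n = 3) of the summed signal per length of the 10 genes in untreated A2780cis cells at 12 h and 28.1% ± 1.74 in treated ones. In A2780 these shares were 6.80% ± 0.228 and 8.55% ± 0.286. The share of MCL1, BCL2L1 and BCL2 together went from 52.6% ± 2.25 to 37.5% ± 2.91 in A2780cis and from 58.6% ± 1.65 to 52.2% ± 3.27 in A2780. In both lines the treated and untreated libraries of 12 h did not overlap in these shares. The ratio of BAX to BCL2 per length was 45.9 ± 2.15 in untreated and 74.9 ± 15.2 in treated A2780 cells at 12 h. In A2780cis it was 63.7 ± 4.21 and 187 ± 22.9, with all treated libraries above the untreated ones. These are ratios of RNA, and they say nothing of the proteins.

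**Figure D4:**
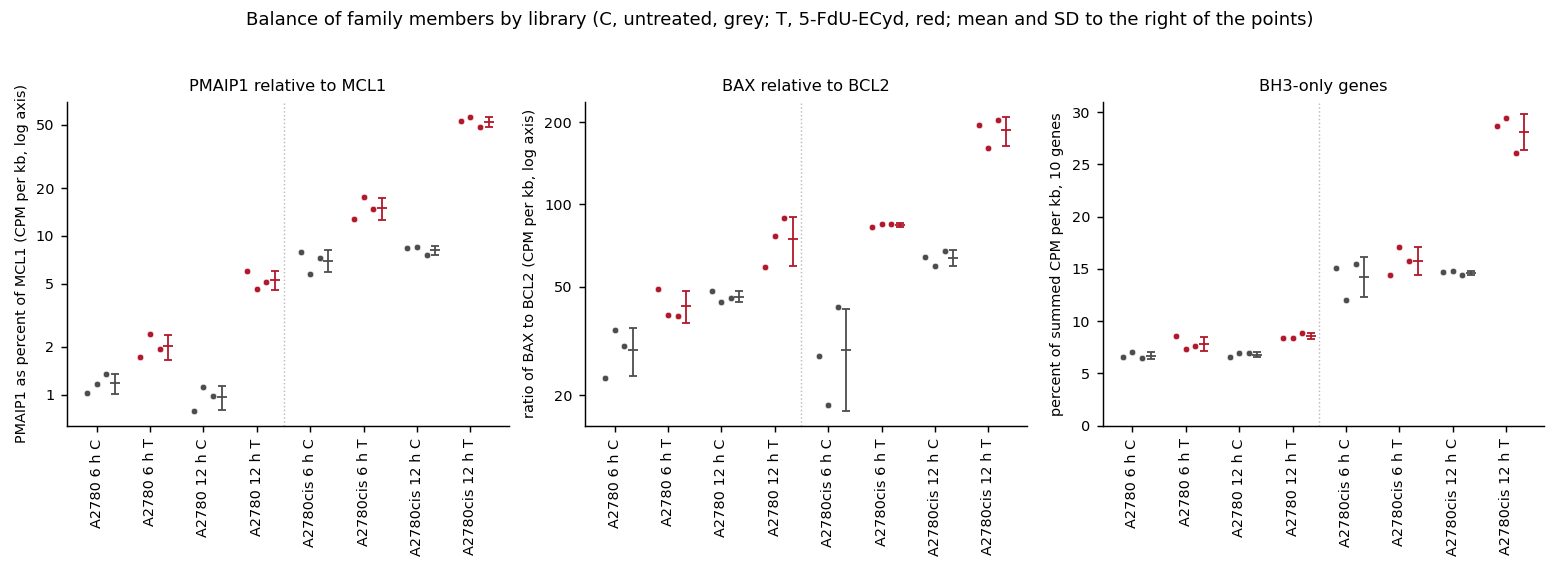
PMAIP1 as a percentage of MCL1 (left, log axis), the ratio of BAX to BCL2 (middle, log axis) and the share of the BH3-only genes in the summed signal of the 10 genes (right, percent), each from CPM per kilobase of exon, by library and group (C, untreated; T, treated), with mean and SD of 3 libraries. PMAIP1 reached 48.5% to 56.3% of MCL1 in treated A2780cis cells at 12 h, against 7.57% to 8.58% in untreated ones.

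The lines already differed before treatment, but the share of these genes that passed was near that of all genes. Untreated A2780cis cells had more PMAIP1 and BID and less BAX, BCL2 and MCL1 than untreated A2780 cells, at 6 h and again at 12 h. Of the 10 genes, 2 were higher and 3 lower at each time, against 47.9% of all genes passing at 6 h (25.0% higher, 22.9% lower) and 52.9% at 12 h (25.4% higher, 27.5% lower). The log2 FC of A2780cis against A2780 for PMAIP1 was 2.21 ± 0.22 at 6 h (adjusted p = 2.15e-09) and 2.40 ± 0.20 at 12 h (adjusted p = 1.10e-10). BID was higher by 0.57 ± 0.12 and 0.58 ± 0.12 (adjusted p = 0.000378 and 0.000188). BAX was lower, with -0.77 ± 0.15 and -0.60 ± 0.14 (adjusted p = 8.11e-05 and 0.000632). BCL2 was lower, with -0.69 ± 0.16 and -1.07 ± 0.15 (adjusted p = 0.000912 and 1.43e-06), and MCL1 with -0.36 ± 0.09 and -0.67 ± 0.09 (adjusted p = 0.00247 and 9.24e-07). The untreated libraries of the lines did not overlap for any of these 5 genes. Leaving out BIK, they did not overlap for 6 of the 9 genes at each time, against 52.0% (6 h) and 62.3% (12 h) of all genes tested.

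BAX, BAK1 and BBC3, which treatment raised, were also higher in untreated cells of 12 h than of 6 h. In A2780 these 3 of the 10 genes passed (background 26.9%; 16.6% higher, 10.3% lower), with a log2 FC of 0.58 ± 0.14 for BAX (adjusted p = 0.00475), 0.40 ± 0.14 for BAK1 (adjusted p = 0.0349) and 1.21 ± 0.30 for BBC3 (adjusted p = 0.00556). In A2780cis the same 3 genes had 0.75 ± 0.14, 0.51 ± 0.14 and 1.56 ± 0.35 (adjusted p = 0.000344, 0.00617 and 0.00126), and BCL2L1 had 0.31 ± 0.12 (adjusted p = 0.0436). MCL1 and BCL2 were lower there, by -0.42 ± 0.09 (adjusted p = 0.00128) and -0.45 ± 0.17 (adjusted p = 0.0335), so that 6 of the 10 genes passed against 39.9% of all genes (18% higher, 21.9% lower). The libraries of the times did not overlap for BAX, BAK1 and BBC3 in either line, nor for 46.1% of all genes in A2780 and 48.9% in A2780cis. With all libraries, DESeq2 called 3 of the 10 genes in A2780, against 30.0% of all genes. Without untreated A2780 replicate 1 of 6 h, 0 of the 10 passed edgeR's test, with 2 at an unadjusted p under 0.05. Leaving out that library also lowered the share of all genes that passed, from 26.9% to 9.39%. That library had the lowest BAX, BAK1 and BBC3 of its group. The BAK1 call in A2780 was also lost without any 1 of the untreated 12 h libraries (log2 FC 0.36 to 0.43). In A2780cis the BCL2 call was lost without any 1 of 5 of the 6 libraries (log2 FC -0.48 to -0.30), with scaling by library size alone (-0.28, adjusted p = 0.238), without a filter (-0.40, adjusted p = 0.155) and with the compared libraries alone (-0.37, adjusted p = 0.147), and the BCL2L1 call without replicate 2 or 3 of either time (0.23 to 0.35). The untreated libraries of 6 h held 11077368 to 14372622 reads and those of 12 h held 15253875 to 21366058, and the part of depth in these differences was not tested. Each treatment comparison above used the controls of its own time.

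Of 13 other genes of the family, 9 passed the filter. In A2780 at 12 h 1 was higher and 5 were lower, against 54.8% of all genes passing, and in A2780cis 2 were higher and 2 lower, against 59.9%. Their medians were -0.43 and -0.04, beside 0.02 and 0.04 over all genes tested. BOK, a BAX-like gene, was lower in both lines at 12 h, with a log2 FC of -1.10 ± 0.20 in A2780 (adjusted p = 5.93e-05) and -1.05 ± 0.19 in A2780cis (adjusted p = 3.32e-05). BNIP3, a mitophagy receptor, was lower in both (-0.43 ± 0.09 and -0.38 ± 0.09; adjusted p = 0.000193 and 0.000565). BCL2L12 was lower in A2780 (-0.51 ± 0.13, adjusted p = 0.00170; -0.28, adjusted p = 0.102, with scaling by library size alone), and BNIP3L, a relative of BNIP3, was higher in A2780cis (0.44 ± 0.12, adjusted p = 0.00271). A pair of BH3-only genes of this list lay below the level set for naming and were chosen after their values were seen. BMF had 0.431 ± 0.179 CPM (SD, n = 3) in untreated and 2.74 ± 0.186 CPM in treated A2780cis cells at 12 h, with a log2 FC of 2.63 ± 0.26 (adjusted p = 2.81e-09), against -0.48 ± 0.22 in A2780 (adjusted p = 0.0633). At 6 h BMF had 0.0607 ± 0.0534 CPM (SD, n = 3) in untreated and 0.431 ± 0.0511 CPM in treated A2780cis cells. The log2 FC was 2.65 ± 0.65 (adjusted p = 0.00505), from an untreated level close to the limit of detection. HRK fell in A2780 at 12 h (-1.61 ± 0.30, adjusted p = 5.93e-05) and had 0.55 ± 0.28 in A2780cis (adjusted p = 0.0983).

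Among 14 genes of the apoptosome and its inhibitors, 3 were higher and 3 lower in A2780 at 12 h, against 54.8% of all genes passing. In A2780cis 3 were higher and 4 lower, against 59.9%. The medians were 0.02 and -0.07. APAF1, the scaffold on which released cytochrome c activates caspase-9, was higher in both lines (1.40 ± 0.12 and 0.92 ± 0.12; adjusted p = 3.26e-10 and 4.87e-07). BIRC3, an inhibitor of apoptosis protein, was higher as well, with 3.06 ± 0.17 in A2780 (adjusted p = 9.28e-14) and 0.96 ± 0.15 in A2780cis (adjusted p = 4.62e-06). BIRC2, its close relative, was higher in A2780 (0.59 ± 0.11, adjusted p = 0.000107), and BIRC5, which encodes survivin, was lower in A2780cis (-0.92 ± 0.08, adjusted p = 3.60e-10) and in A2780 (-0.35 ± 0.08, adjusted p = 0.000577).

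Among 12 regulators of the family, 5 were higher and 3 lower in A2780 at 12 h, and 4 were higher and 6 lower in A2780cis, against the same shares of all genes, with medians of 0.29 and -0.19. The named ones act on MCL1 protein. FBXW7, a subunit of a ubiquitin ligase for MCL1, was higher (1.85 ± 0.09 and 1.25 ± 0.09; adjusted p = 2.25e-14 and 1.95e-11). HUWE1, another ligase for MCL1, was lower (-1.54 ± 0.19 and -1.58 ± 0.19; adjusted p = 1.56e-07 and 8.35e-08). USP9X, which removes ubiquitin from MCL1, was lower too (-1.28 ± 0.11 and -1.65 ± 0.11; adjusted p = 2.59e-10 and 2.54e-12).

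Over the 24 libraries, which share lines, treatments and times, the genes fell into a few patterns. BAX and BAK1 had a Pearson r of 0.96 in log2 CPM, and BBC3 had 0.92 with each of them. PMAIP1 followed BAX less closely (r = 0.12), and ran against BCL2 (r = -0.79), as did BID (r = -0.78). Among 11190 protein-coding genes, the one most like PMAIP1 was TXNIP (r = 0.972), followed by ZNF623 (0.969). DMPK (0.974) and EPHA2 (0.967) were most like BBC3, FBXO2 (0.962) and MFGE8 (0.959) most like BAX, and MYL9 (0.971) and PCBP4 (0.959) most like BAK1. For BCL2 they were ZSWIM5 (0.969) and VANGL1 (0.965), and for MCL1 BACH1 (0.95) and ERCC6 (0.940). WDR1 (0.913) and CCAR2 (0.908) were most like BCL2L1, IDH3B (0.946) and PPIB (0.932) most like BID, HEXIM1 (0.887) and EFNB1 (0.885) most like BCL2L11, and KIAA0513 (0.930) and RUBCN (0.907) most like BIK. These values describe the libraries and were not tested.

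Reads could also be shared with other genes. Exons of MIR4435-2HG lie opposite 10.8% of the exon bases of BCL2L11, and ADAMTSL4-AS1 covers 5.27% of those of MCL1 on the same strand. GGNBP1 lies opposite 4.11% of those of BAK1. The processed copy BAK1P1 had at most 16.5 counts in any library, against at least 146 for BAK1.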

How the data were processed

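The authors trimmed the reads with Trimmomatic, aligned them with STAR 2.5.2b to GRCh38.p7 and counted them on exons by gene with featureCounts; the deposited values are expected counts, not normalized, in which a read with several alignments adds fractions and a read over several genes is allowed. The strand setting is not given in the sources used here, and the sources name both single and paired reads. Identifiers were matched to GENCODE 44 without their versions (56993 of 63299). Counts were rounded, filtered (filterByExpr, minimum count 10, minimum total 15), normalized with TMM and fitted with edgeR 4.0.16 in R 4.3.3 over all 24 libraries, so that each group had its own coefficient and 16 degrees of freedom remained. Adjusted p-values are from edgeR's two-sided quasi-likelihood test with Benjamini-Hochberg adjustment over 20240 genes, threshold 0.05. The SE was taken from the log2 FC and its F statistic (size of the log2 FC over the root of F). The procedure was tested on simulated data. The members and lists were chosen with earlier results of these data known. Named were all 10 members and, of each other list and line at 12 h, up to 3 genes past the threshold with the largest absolute log2 FC and a mean log2 CPM of at least 2; for likeness, the 2 genes with the highest r. Alternatives were other scalings, no filter, unrounded counts, a replicate block, fitting just the libraries compared, the DESeq2 1.42.0 Wald test, each library left out, and another length. Replicate pairs differed by more than sampling noise (chi-square per degree of freedom 2.17 to 22.9). Figures used Python 3.11.15 with pandas 2.3.3 and matplotlib 3.10.9.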

Additional observations from a re-analysis of the deposited data

Results flagged for a closer look

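These differences of the treatment response passed the test of the difference itself, and their values are given without an explanation. Between the lines, the log2 FC of BCL2 in A2780cis minus that in A2780 was -0.95 at 6 h and -0.83 at 12 h, and that of BCL2L1 was -0.53 at 12 h. Between the times, the log2 FC of PMAIP1 at 12 h minus that at 6 h was 1.94 in A2780 and 1.48 in A2780cis, and that of BCL2L1 in A2780cis was -0.57. Each library was left out in turn, but with 3 libraries per group none was tested for standing apart from its group.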

How the results depend on the processing

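When libraries were scaled by their totals alone (library size), the median over all genes tested went from 0.02 to 0.24 in A2780 at 12 h and from 0.04 to 0.15 in A2780cis at 12 h, and the share of higher genes among those called from 52.3% to 70.7% in A2780 at 12 h, 47.0% to 61.4% in A2780cis at 6 h, 45.1% to 69.7% for the time difference in A2780, 41.0% to 27.0% for the line difference at 12 h, and 61.7% to 71.9% and 45.2% to 74.6% between untreated times in A2780 and A2780cis. Under it, values without a call changed sign for BCL2L1 in A2780 at 12 h (0.16) and A2780cis at 6 h (0.07), BID in A2780cis at 12 h (0.08) and the line difference of PMAIP1 at 12 h (-0.03). Of the 10 genes, BIK included, it gave 9 higher in A2780 at 6 h (29.9% of all genes called, 19% higher), 2 with a time difference in A2780 (23.4% of all) and 5 that differed between untreated times in A2780 (26.5% of all). With the compared libraries alone, 0 genes had a line difference at 6 h (3 at an unadjusted p under 0.05; DESeq2 called 1) against 2.16% of all genes, and 2 had a time difference in A2780, against 26%. The cause was not tested.

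The number of the 10 genes called, BIK included, was taken again with 1 library left out at a time. For treatment this number is left out, because it would count calls of BIK, of which no test is given above. It was 0 to 1 and 1 to 2 for the line difference, and 1 to 1 and 1 to 3 for the time difference. Between untreated lines it was 5 to 7 and 5 to 6, and between untreated times 0 to 4 and 4 to 5. Of all genes, 18.9% to 29.7% and 48.7% to 52.3% were called for treatment in A2780 at 6 h and 12 h. In A2780cis 21.6% to 30.0% and 54.7% to 57.7% were called. Between untreated times 9.39% to 28.4% were called in A2780 and 25.0% to 41.7% in A2780cis. Uncalled values that changed sign ranged from -0.01 to 0.20 for BCL2 and -0.13 to 0.01 for BCL2L1 in A2780 at 12 h, -0.11 to 0.02 for BCL2L1 in A2780cis at 6 h, -0.13 to 0.09 for BID in A2780cis at 12 h, and -0.04 to 0.28 for the line difference of PMAIP1 at 12 h.

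The replicate numbers did not pair the samples (correlations of deviations from -0.254 to 0.312). Between untreated times in A2780, with BIK included, the replicate block gave 4 called genes in place of 3. Of all genes, the block called 29.3% in that comparison, against 26.9% without it. For treatment at 12 h it called 55.9% of all genes in A2780 and 60.8% in A2780cis, against 54.8% and 59.9%. DESeq2 gave no adjusted p for BIK in A2780 at 6 h. Over settings other than leaving out a library, 452 of 468 values of single genes kept their direction and side of the threshold, 9 lost the call, 3 gained it and 4 changed sign. Low counts limit BIK, untreated BBC3 and BCL2L11, and PMAIP1 in untreated A2780 cells.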
